A study of Mus musculus with 12 samples.

Results

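The genes described here are 8 genes of neutrophil granules, out of 48440 features with a value in the RPKM table of pillar and Deiters' cells. Mpo, Prtn3, Elane and Ctsg encode proteins of the primary granules, and Ltf, Camp, Ngp and Lcn2 encode proteins of the secondary granules. The genes were chosen by gene symbol, and they were selected on their RPKM in these same libraries, for opposite directions between the 2 cell types. Their difference between the cell types is therefore given as a description, with no test. RPKM divides the reads of a gene by the length of its transcript and by the size of the library, so that levels can be set side by side between genes of different length.

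Pillar cells and Deiters' cells are supporting cells of the organ of Corti, the sensory epithelium of the cochlea. Both came from adult CBA/J mice of 28 to 32 days with no treatment and no engineered allele named in the labels, and the cell types were told apart by shape and drawn singly into suction pipettes. Each of the 3 libraries of a cell type was made from about 1000 cells pooled from several mice and was sequenced in 2 lanes, which were averaged to 1 value per library (n = 3 per cell type). Both cell types were taken from each animal, so that pillar and Deiters' libraries may share mice, and which of them do is not stated. The RPKM values rest on 18641354 to 21557584 reads per library, as worked out from the values themselves. These are the reads that entered the RPKM, and the methods name several times as many sequenced reads per sample. A single read per kilobase stood for 0.0464 to 0.0536 RPKM. Such a pool is a bulk sample, in which fewer cells of a type and less RNA per cell cannot be told apart.

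Neutrophils fill their granules while they mature in the bone marrow. Primary, or azurophil, granules are made at the promyelocyte stage and carry myeloperoxidase and serine proteases. Secondary, or specific, granules are made later, at the myelocyte and metamyelocyte stages, and carry lactoferrin, cathelicidin and lipocalin, while gelatinase granules follow. The mRNA of each class is made mostly at its own stage, and circulating neutrophils hold the proteins with little of the mRNA. In the mouse, factors such as PU.1, C/EBP proteins, RUNX1, MYB and GFI1 act on granule genes. Supporting cells of the cochlea are not known for granule proteins, although Lcn2 is also made by many epithelia.

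The sequence before the start of each of the 8 genes was taken from RefSeq promoters on GRCm38.p6, 250 bases before to 50 bases after the annotated start, and all 8 genes had an entry. Motifs were chosen after the sequences had been seen and were searched on both strands. The letters AGGAAGT, a core that PU.1 recognizes, were found in all 4 primary gene promoters and in 0 of the 4 secondary gene promoters, and in 9.35% of 32851 promoters of this length. The stretches around them are shown because these letters divided the 8 genes along the granule classes. They are written 5′ to 3′ on the strand of the gene, with the PU.1 letters in capitals.
Mpo, chr11:87793534-87793597, plus strand: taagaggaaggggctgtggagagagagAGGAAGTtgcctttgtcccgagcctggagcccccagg
Prtn3, chr10:79879543-79879609, plus strand: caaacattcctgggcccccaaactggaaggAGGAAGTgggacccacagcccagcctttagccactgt
Elane, chr10:79886198-79886264, plus strand: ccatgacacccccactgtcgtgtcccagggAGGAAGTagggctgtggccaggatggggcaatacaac
Ctsg, chr14:56102744-56102810, minus strand: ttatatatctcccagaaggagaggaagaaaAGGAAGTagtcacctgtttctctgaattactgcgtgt
The match began 223 bases before the RefSeq start in Mpo, 94 in Prtn3, 84 in Elane and 206 in Ctsg, and it lay on the strand of the gene in each. The RefSeq start of Prtn3 lies 5191 bases inside the longer gene that GENCODE annotates, so that this stretch is within the GENCODE gene. For the other 7 genes the RefSeq start lies 0 to 513 bases inside it. Prtn3 and Elane also held AACGG, a core of MYB sites, 55 and 50 bases before the start, and 17.4% of all promoters held it.

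For the secondary genes, the letters TTNNGNAA, a relaxed form of the C/EBP site, were found in the promoters of Ltf, Ngp and Lcn2, not of Camp, and in 0 of the 4 primary gene promoters. They are common letters, present in 40.7% of all promoters. The 250 bases before the start are shown for Ltf and Ngp, which held more than 1 match, and a shorter stretch for Lcn2, with the C/EBP letters in capitals.
Ltf, chr9:111019042-111019291, plus strand: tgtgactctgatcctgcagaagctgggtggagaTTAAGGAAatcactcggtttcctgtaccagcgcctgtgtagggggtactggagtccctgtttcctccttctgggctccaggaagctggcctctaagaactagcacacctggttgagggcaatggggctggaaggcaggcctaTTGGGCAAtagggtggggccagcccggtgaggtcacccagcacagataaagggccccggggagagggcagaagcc
Ngp, chr9:110419558-110419807, plus strand: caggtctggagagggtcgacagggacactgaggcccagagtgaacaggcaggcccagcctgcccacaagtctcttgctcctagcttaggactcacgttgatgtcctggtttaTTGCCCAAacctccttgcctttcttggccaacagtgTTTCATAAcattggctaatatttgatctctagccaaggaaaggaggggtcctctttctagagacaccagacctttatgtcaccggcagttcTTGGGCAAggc
Lcn2, chr2:32387918-32387985, minus strand: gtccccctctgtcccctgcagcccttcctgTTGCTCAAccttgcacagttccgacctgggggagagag
Ltf held 2 matches, 217 and 75 bases before the start. Ngp held 3, the nearest 11 bases before the start, and Lcn2 held 1, at 216 bases. The match in Lcn2 and those in Ngp at 138 and 102 bases lay on the opposite strand. Their capitals are therefore the reverse complement of the letters. The split did not extend to further granule genes. Among 6 other primary granule genes with a promoter, 2 held the PU.1 letters and 4 the C/EBP letters. Among 10 other secondary granule genes, 4 held the PU.1 letters and 6 the C/EBP letters. The matches within the 8 promoters did not overlap each other, and a match is a run of letters and not a shown binding site.

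**Figure D1:**
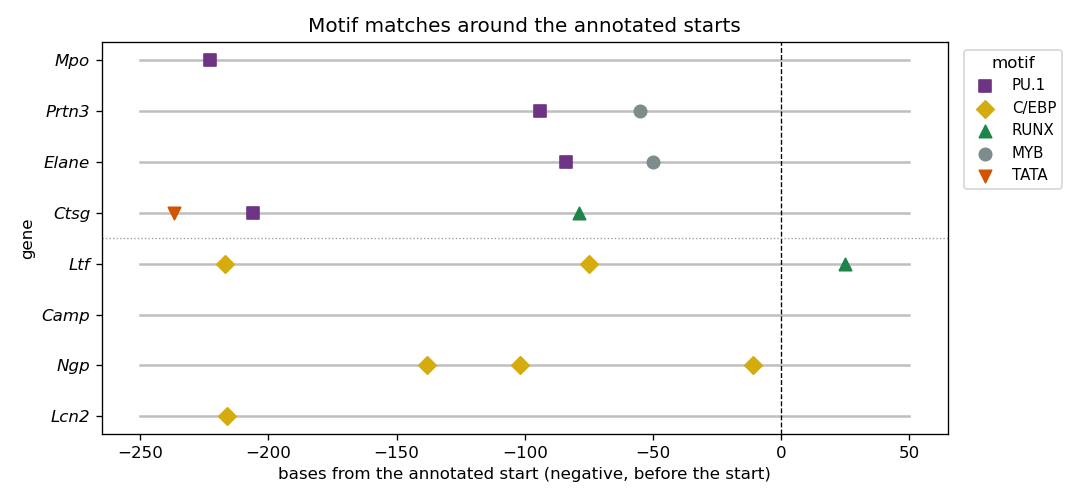
Matches to 5 motifs around the annotated start of each gene, with the distance from the start in bases on the x axis and 1 line per gene. The PU.1 letters (purple squares) lie before the start of the 4 primary genes, the C/EBP letters (yellow diamonds) around 3 of the 4 secondary genes, and Camp holds none of the 5 motifs. RUNX stands for TGTGGT, held by 16.8% of all promoters, and TATA for TATAAA, held by 13.6%.

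Taken as a class, 3 of the 4 primary granule genes were higher in the Deiters' cell libraries and all 4 secondary granule genes were higher in the pillar cell libraries, with no overlap between the libraries of the cell types for these 7 genes. Of the 17188 genes tested, 37.6% were likewise higher in every pillar library than in every Deiters' library and 38.9% the other way. By limma, 14.7% were called higher in pillar and 14.0% higher in Deiters' cells, with thresholds of 0.01 for the adjusted p and 2-fold for the difference. The genes were chosen for this contrast, so their count is not read against these shares. Ctsg, the fourth primary gene, was slightly higher in pillar cells with overlapping libraries, which goes against the direction given for its class. The median log2 ratio of mean RPKM, pillar over Deiters' cells, was -2.26 for the primary genes and 2.44 for the secondary genes. The median difference over all genes tested was 0.000744 on the log2(RPKM + 0.1) scale.

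Mpo encodes myeloperoxidase, the haem enzyme that makes hypochlorous acid from hydrogen peroxide. Its level was 7.12, 6.38 and 7.39 RPKM in the pillar libraries and 39.3, 38.4 and 40.4 RPKM in the Deiters' libraries. The Deiters' libraries lay close together and far above the pillar libraries, with means of 39.4 ± 1.04 and 6.96 ± 0.522 RPKM (SD, n = 3), a 5.66-fold difference. The values rest on 417 to 492 reads in each pillar library and 2531 to 2904 in each Deiters' library. Mpo spans chr11:87793581-87804413 on the plus strand (GRCm38). The annotated antisense gene Gm11505 lies within it, and the strand setting of the read counting is not stated, so reads of the pair cannot be told apart. Gm11505 was listed at 0 in pillar and at 0.114 ± 0.0389 RPKM in Deiters' cells.

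Elane encodes neutrophil elastase, a serine protease that digests elastin and bacterial proteins. It was the most highly expressed of the primary genes in both cell types, at 10.98, 9.84 and 9.58 RPKM in the pillar libraries and 58.2, 59.6 and 57.4 RPKM in the Deiters' libraries. The groups did not overlap, and the means were 10.1 ± 0.746 and 58.4 ± 1.11 RPKM (SD, n = 3), which is 5.76-fold higher in Deiters' cells. The fold was close to that of Mpo, a gene on another chromosome. In Deiters' cells Elane ranked 1122 of all 48440 features.

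Prtn3 encodes proteinase 3, a serine protease related to elastase. Its level was 2.40, 2.03 and 2.17 RPKM in the pillar libraries and 9.18, 9.26 and 8.17 RPKM in the Deiters' libraries. It was 4.03-fold higher in Deiters' cells, with means of 8.87 ± 0.605 against 2.20 ± 0.190 RPKM (SD, n = 3) and no overlap. Prtn3 (chr10:79874476-79883174) and Elane (chr10:79886247-79888215) lie 3072 bases apart on the plus strand. The 5′ end of the annotated Prtn3 gene overlaps Plppr3, a phospholipid phosphatase-related gene on the minus strand. Plppr3 went the other way, at 0.565 ± 0.0491 RPKM in pillar and 0.153 ± 0.0635 in Deiters' cells.

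Ctsg encodes cathepsin G, a serine protease of the same granules whose gene lies in a cluster with mast cell proteases (chr14:56099881-56102574, minus strand). It stood at 2.72, 4.18 and 3.60 RPKM in the pillar libraries and at 2.36, 2.85 and 2.95 RPKM in the Deiters' libraries. The lowest pillar library lay below the 2 highest Deiters' libraries. The means of 3.5 ± 0.737 and 2.72 ± 0.312 RPKM (SD, n = 3) were 1.29-fold apart, the higher one in pillar cells. With lane 1 alone the log2 ratio was 0.0086, and with lane 2 alone 0.71. Ctsg had 51 to 80 reads per library. Its lanes differed the most of the 8 genes, with lane 1 at 0.559 of lane 2 in pillar library 3. The neighbouring mast cell protease genes Mcpt1, Mcpt2, Mcpt4 and Mcpt9 were listed at 0 in every library.

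**Figure D2:**
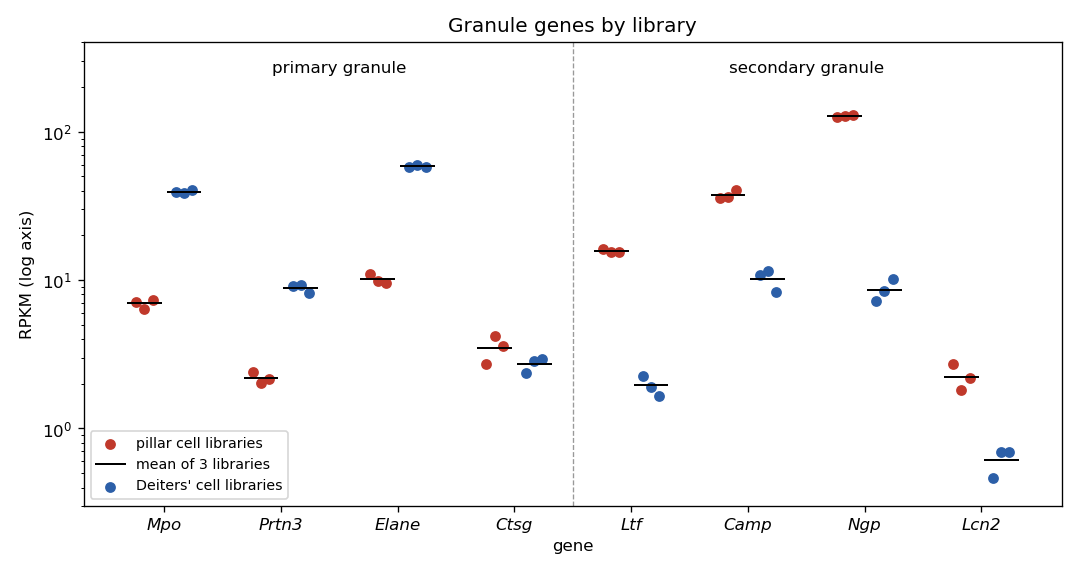
RPKM of the 8 granule genes in each library on a log axis, with pillar cell libraries in red, Deiters' cell libraries in blue and a black line at the mean of 3 libraries. Mpo, Prtn3 and Elane are higher in all 3 Deiters' libraries, Ctsg overlaps, and the 4 secondary granule genes are higher in all 3 pillar libraries.

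Ngp encodes neutrophilic granule protein, a secondary granule protein of the mouse with a cystatin-like fold related to the cathelicidins. It was the most highly expressed of the 8 genes in pillar cells and the farthest apart between the cell types, while in Deiters' cells Elane, Mpo, Camp and Prtn3 had higher means. Its level was 125, 127 and 130 RPKM in the pillar libraries and 7.20, 8.41 and 10.1 RPKM in the Deiters' libraries, with no overlap. The means were 127 ± 2.24 and 8.58 ± 1.48 RPKM (SD, n = 3), 14.8-fold apart. It ranked 463 of 48440 features in pillar and 5136 in Deiters' cells.

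Camp encodes the cathelicidin precursor, from which the antimicrobial peptide CRAMP is cut in the mouse. It measured 35.8, 36.1 and 40.6 RPKM in the pillar libraries and 10.8, 11.5 and 8.35 RPKM in the Deiters' libraries. All pillar libraries were above all Deiters' libraries, by 3.68-fold between means of 37.5 ± 2.70 and 10.2 ± 1.65 RPKM (SD, n = 3). In Deiters' cells Camp was above Ngp in 2 of the 3 libraries, and in pillar cells Ngp was above Camp in all 3.

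Ltf encodes lactoferrin, an iron-binding protein of milk, tears and secondary granules. It was 16.2, 15.5 and 15.4 RPKM in the pillar libraries against 2.27, 1.91 and 1.66 RPKM in the Deiters' libraries, with no overlap. The means of 15.7 ± 0.445 and 1.95 ± 0.306 RPKM (SD, n = 3) differed 8.06-fold. Ltf (chr9:111019271-111042767), Camp (chr9:109847379-109849617) and Ngp (chr9:110419747-110423012) share a chromosome, with 570.1 kb between Camp and Ngp and 596.3 kb between Ngp and Ltf.

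Lcn2 encodes lipocalin 2, which withholds iron from bacteria by binding their siderophores. It had the lowest level of the secondary genes, with 2.70, 1.82 and 2.18 RPKM in the pillar libraries and 0.460, 0.692 and 0.695 RPKM in the Deiters' libraries. The groups did not overlap, and the means of 2.23 ± 0.444 and 0.616 ± 0.135 RPKM (SD, n = 3) were 3.63-fold apart. The Deiters' values rest on 26 to 35 reads per library, and the coefficient of variation there was 21.9%, of which counting alone gives 17.9%. Lcn2 lies at chr2:32384633-32388252 on the minus strand.

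Summed levels of a class differed little between the libraries of a cell type. The 4 primary genes summed to 23.2, 22.4 and 22.7 RPKM in the pillar libraries and to 109, 110 and 109 RPKM in the Deiters' libraries. The 4 secondary genes summed to 180, 180 and 188 RPKM in the pillar libraries and to 20.7, 22.5 and 20.8 RPKM in the Deiters' libraries. Primary genes thus made up 11.1% ± 0.320 of the summed RPKM of the 8 genes in pillar and 83.7% ± 0.564 in Deiters' cells (SD, n = 3). Summed RNA of neither class was at 0 in either cell type. The spread of single genes between libraries was near or below that of read counting for some and above it for others. The coefficient of variation of Ngp in pillar libraries was 1.76%, where counting alone gives 1.82%. For Elane in Deiters' libraries it was 1.91%, against 3.07%, and for Ltf there 15.7%, against 8.74%. The SDs and limma tests rest on the spread between libraries, which are pools of mice and not single mice. Where that spread does not exceed counting, no spread between pools can be seen in it. Whether the libraries vary as independent pools was not tested. Within each cell type, no library was the highest or the lowest for all 8 genes: pillar library 1 was the highest for 4 genes, and Deiters' library 3 was the highest for 4 and the lowest for 4.

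Ratios between genes of 1 class, taken within a library, showed which genes kept their proportion. Elane stood to Mpo at 1.54, 1.54 and 1.30 in the pillar libraries and at 1.48, 1.55 and 1.42 in the Deiters' libraries, and these ranges overlapped. Mpo stood to Prtn3 at 3.17 ± 0.222 in pillar and 4.46 ± 0.429 in Deiters' cells, with no overlap. Elane stood to Ctsg at 3.02 ± 0.898 in pillar and 21.7 ± 2.63 in Deiters' cells. Among the secondary genes, the ratio of Ngp to Camp was 3.40 ± 0.183 in pillar and 0.872 ± 0.299 in Deiters' cells. The ratio of Camp to Ltf went the other way, at 2.39 ± 0.218 in pillar and 5.26 ± 0.674 in Deiters' cells (SD, n = 3 for each). Of the 7 ratios plotted, that of Elane to Mpo was the only one whose libraries overlapped between the cell types. The genes of a class were thus not in 1 fixed proportion across the cell types. These ratios come from the contrast the genes were chosen on and carry no test.

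**Figure D3:**
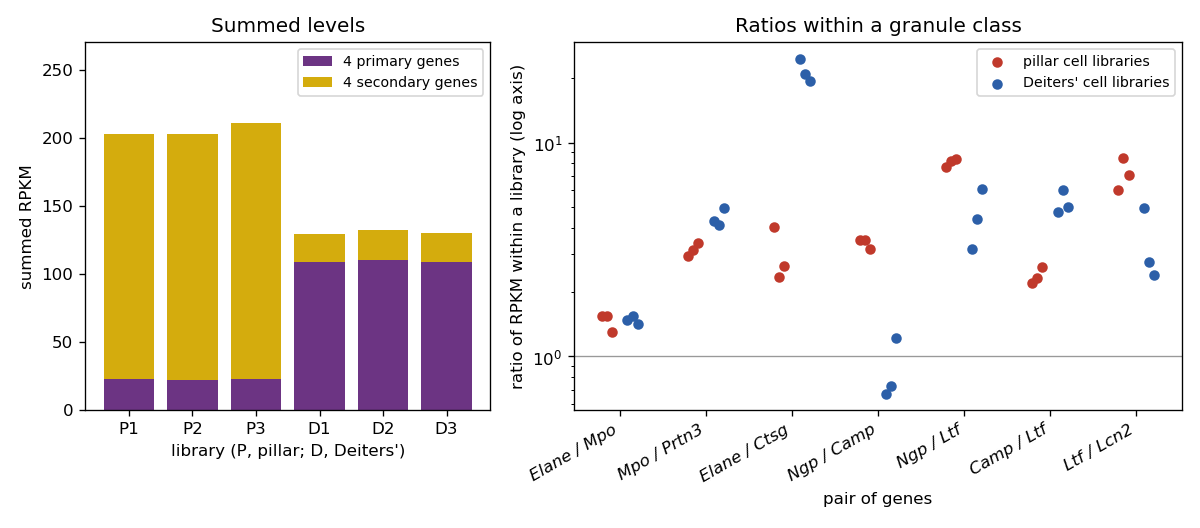
Left, summed RPKM of the 4 primary (purple) and 4 secondary (yellow) granule genes in each library, with the axis starting at 0. Right, ratio of RPKM between gene pairs of a class within each library on a log axis, where pillar (red) and Deiters' (blue) libraries overlap for Elane over Mpo and lie apart for the other pairs.

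Genes of the neutrophil lineage outside the 8 went in both directions. The list of 61 other neutrophil genes covered further granule proteins, the inhibitor gene Serpinb1a, surface receptors, cytosol proteins and the NADPH oxidase. It had 60 genes in the table and 49 tested. Of these, 17 (34.7%) were called higher in pillar cells and 10 (20.4%) higher in Deiters' cells, beside 14.7% and 14.0% of all genes tested, and 22 were not called. Their median difference was 0.51 on the log2(RPKM + 0.1) scale, pillar minus Deiters' cells. Of the 49 genes, 5 were at 0 in every pillar library and 2 in every Deiters' library. Such genes passed the filter on 1 cell type and could be called only toward it. With 1 RPKM in place of 0.1 added before the log, 12 and 3 were called, and with only genes above 1 RPKM tested, 14 and 4.

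Of 8 other genes listed with the primary granules, 7 were tested, 2 were called higher in Deiters' cells and 2 higher in pillar cells. The shares of all genes tested were 14.0% and 14.7%. The list includes Serpinb1a, which encodes an inhibitor of the granule proteases, and it is 1 of the 2 called higher in pillar cells. Cd63, a tetraspanin of granule and lysosome membranes in many cell types, was 2.51-fold higher in Deiters' cells, at 812 ± 18.4 against 323 ± 4.46 RPKM (limma, adjusted p = 1.85e-07). Lyz2, lysozyme of myeloid cells, was 2.35-fold higher in pillar cells, at 100.6 ± 3.27 against 42.8 ± 1.61 RPKM (limma, adjusted p = 9.87e-07). Serpinb1a, an inhibitor of elastase, proteinase 3 and cathepsin G, was 4.0-fold higher in pillar cells, at 16.3 ± 0.248 against 4.08 ± 0.0511 RPKM (limma, adjusted p = 1.62e-07). Ctsc, the protease that activates the granule serine proteases, was at 2.89 ± 0.297 RPKM in pillar and 5.56 ± 0.239 in Deiters' cells and did not reach 2-fold. Srgn, the proteoglycan core of granules, was at 7.71 ± 0.625 and 6.09 ± 0.246 RPKM. Ms4a3, a membrane protein of granulocyte and monocyte progenitors named after its values were seen, was at 0.249 to 0.276 RPKM in the pillar libraries and 2.95 to 3.33 in the Deiters' libraries.

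Of 13 other secondary granule genes, 12 were tested, 3 (25%) were called higher in pillar and 2 (16.7%) higher in Deiters' cells. The shares of all genes tested were 14.7% and 14.0%. Pglyrp1, which binds bacterial peptidoglycan, was 3.13-fold higher in pillar cells, at 5.75 ± 0.0659 against 1.83 ± 0.322 RPKM (limma, adjusted p = 4.82e-05). Ptx3, a pentraxin that fibroblasts and endothelium also make, was 3.95-fold higher in Deiters' cells, at 10.4 ± 1.13 against 2.63 ± 0.149 RPKM (limma, adjusted p = 4.46e-06). Mmp8, neutrophil collagenase, was at 2.39 ± 0.208 RPKM in pillar and 1.67 ± 0.463 in Deiters' cells, a difference that was not called. Hp, haptoglobin, and Cyba, the p22phox subunit of the oxidase, differed by 1.5-fold and 1.15-fold. Olfm4, of a subset of neutrophils, was listed at 0 in every library.

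Later markers of the lineage were called in both directions, but those called higher in Deiters' cells were all below 1 RPKM. With only genes above 1 RPKM tested, the gelatinase, surface and cytosol lists gave 2, 2 and 5 calls to pillar cells. Under that filter each list gave 0 calls to Deiters' cells. Of 5 gelatinase granule genes, 3 were called higher in pillar and 1 higher in Deiters' cells. The shares of all genes tested were 14.7% and 14.0%. Mmp9, gelatinase B, was 3.61-fold higher in pillar cells, at 2.03 ± 0.0421 against 0.562 ± 0.0130 RPKM (limma, adjusted p = 7.27e-06). Adam8, a membrane metalloprotease of leukocytes and other cells, was 55.7-fold higher in pillar cells, at 12.1 ± 0.455 against 0.217 ± 0.0338 RPKM. Slc11a1, a metal transporter of phagocyte granules, went the other way and was listed at 0 in pillar and at 0.571 ± 0.0710 RPKM in Deiters' cells. Itgam is not analysed here. Of 13 surface genes tested, 4 were called higher in pillar and 3 higher in Deiters' cells, and Ly6g, the antigen used to mark mouse neutrophils, was 5.64-fold higher in pillar cells, at 3.52 ± 0.208 against 0.624 ± 0.243 RPKM (limma, adjusted p = 0.000144). Csf3r, the receptor of granulocyte colony-stimulating factor, was at 1.05 ± 0.157 and 0.537 ± 0.143 RPKM and did not reach 2-fold.

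Of 7 cytosol genes tested, 5 were called higher in pillar and 1 higher in Deiters' cells, beside 14.7% and 14.0% of all genes. S100a9 and S100a8, the subunits of calprotectin, were at 170 ± 4.38 and 144 ± 6.23 RPKM in pillar cells and at 73.8 ± 5.5 and 65.9 ± 7.10 in Deiters' cells, 2.30-fold and 2.18-fold higher in pillar cells (limma, adjusted p = 4.60e-06 and 2.55e-05). Retnlg, a resistin-like protein of mouse neutrophils, was 2.56-fold higher in pillar cells (limma, adjusted p = 9.76e-05). Ifitm6, an interferon-induced transmembrane protein gene, was 4.39-fold higher in pillar cells, at 2.47 ± 0.524 against 0.562 ± 0.116 RPKM (limma, adjusted p = 0.000139). Of 7 NADPH oxidase genes, 0 were called higher in pillar cells by limma, where 2 had an unadjusted p under 0.05 in that direction. Ncf4, which encodes p40phox, was the 1 called higher in Deiters' cells, at 2.90 ± 0.265 against 1.32 ± 0.251 RPKM. Without pillar library 2 its log2 difference of -1.09 moved to -0.93, under 2-fold.

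**Figure D4:**
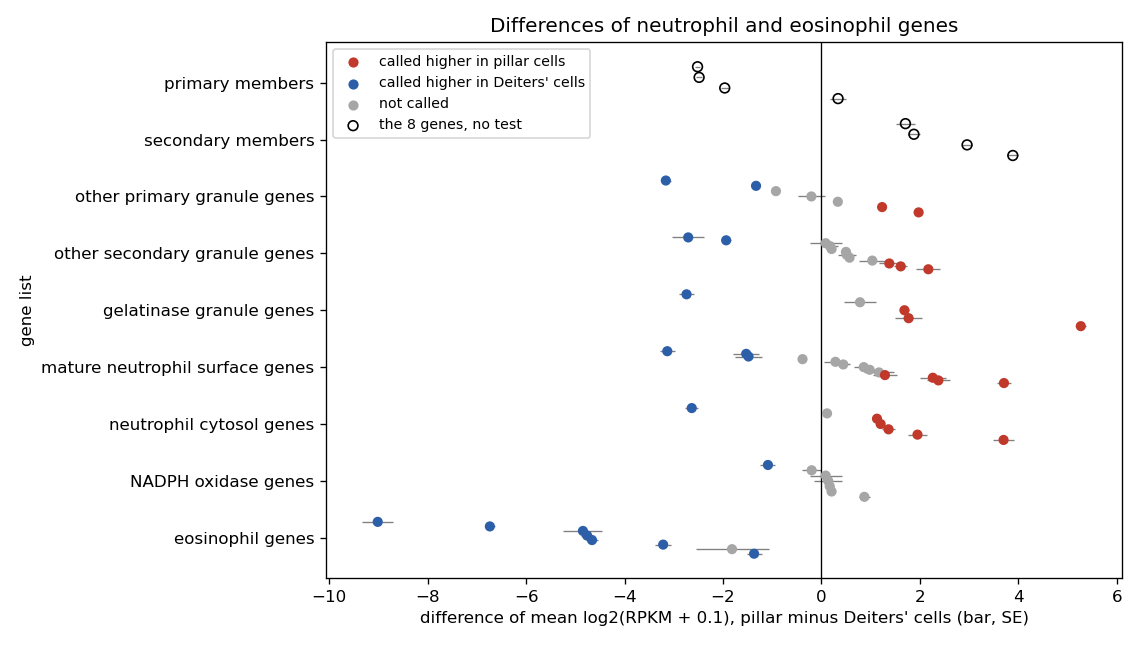
Difference of mean log2(RPKM + 0.1), pillar minus Deiters' cells, for the 8 granule genes (open circles) and for the tested genes of 7 lists, with bars of 1 SE from the limma fit. Red and blue points were called higher in pillar and in Deiters' cells, and grey points were not called. The primary and secondary genes lie on opposite sides of 0 apart from Ctsg, the other neutrophil lists hold genes on both sides, and all eosinophil genes tested lie on the Deiters' side. Of these eosinophil genes, 6 were at 0 in every pillar library.

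Of 9 genes for factors that act on granule genes, 2 (22.2%) were called higher in pillar and 1 (11.1%) higher in Deiters' cells. These shares are near those of all genes tested, 14.7% and 14.0%. Of the genes called higher in pillar cells, Myb lost its call without any 1 pillar library (limma, adjusted p = 0.0122 to 0.0141). Spi1, which encodes PU.1, was at 0.934 ± 0.0465 RPKM in pillar and 0.920 ± 0.136 in Deiters' cells, with overlapping libraries (limma, adjusted p = 0.858). Runx1 was 3.30-fold higher in Deiters' cells, at 2.49 ± 0.186 against 0.753 ± 0.0815 RPKM (limma, adjusted p = 2.49e-05). Gfi1 was 14.6-fold higher in pillar cells, at 10.3 ± 0.0663 against 0.702 ± 0.0649 RPKM, and it is also a transcription factor of hair cells. Hair cell markers were called higher in pillar cells too, 7 of 7 tested with Gfi1 among them, with summed levels of 417 to 446 RPKM in the pillar libraries and 96.6 to 103 in the Deiters' libraries. Their part in the value of Gfi1 was not tested. Cebpb and Cebpd did not reach the call, at 1.83-fold higher in Deiters' cells and 2.12-fold higher in pillar cells by mean RPKM.

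Of 6 genes for receptors and partners of granule proteins, 2 were called higher in pillar and 2 higher in Deiters' cells. The shares of all genes tested were 14.7% and 14.0%. F2rl1, called higher in Deiters' cells, lost its call without pillar library 3 (log2 difference -0.97) or Deiters' library 1 (limma, adjusted p = 0.0103). Bdh2, an enzyme linked to the mammalian siderophore that lipocalin 2 can carry, was at 356 ± 3.91 RPKM in pillar and 919 ± 6.07 in Deiters' cells, 2.58-fold higher in Deiters' cells (limma, adjusted p = 7.57e-08). Slc22a17, a lipocalin 2 receptor, was at 26.4 ± 0.316 and 34.6 ± 0.672 RPKM and did not reach 2-fold. Lrp2, megalin, which takes up lipocalin 2 and lactoferrin, was 2.81-fold higher in pillar cells at 4.29 ± 0.0910 against 1.52 ± 0.134 RPKM. F2r, a thrombin receptor that granule proteases can cut, was 3.29-fold higher in pillar cells at 39.4 ± 0.391 against 11.98 ± 0.523 RPKM. Among protease inhibitors, 3 of 7 tested were called higher in pillar and 0 higher in Deiters' cells by limma, where 3 had an unadjusted p under 0.05 and 1 was called without Deiters' library 3, and Serpinb1a was counted here as well. A2m, a broad protease trap, was 3.06-fold higher in pillar cells, at 10.7 ± 0.0784 against 3.5 ± 0.0851 RPKM.

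Genes of other blood cells were measured in the same libraries, also with unlike directions. Of all genes tested, 14.7% were called higher in pillar and 14.0% higher in Deiters' cells. Of 8 eosinophil genes tested, 7 were called higher in Deiters' cells by limma and 0 higher in pillar cells, also at an unadjusted p under 0.05. Of the 8, 6 were at 0 in every pillar library and passed the filter on their Deiters' level alone. Those 6 could be called only toward Deiters' cells. The summed level of the list was 0.0687 to 0.566 RPKM in the pillar libraries and 92.5 to 95.2 in the Deiters' libraries. Prg2, eosinophil major basic protein, was at 66.4, 68.1 and 68.6 RPKM in the Deiters' libraries and at 0, 0.125 and 0 in the pillar libraries, while Siglecf and Il5ra were listed at 0 throughout. Epx, eosinophil peroxidase, lies 59.6 kb from Mpo and was listed at 0 in pillar and at 0.835 ± 0.130 RPKM in Deiters' cells. All 5 B and plasma cell genes tested were called higher in pillar cells, with sums of 38.1 to 44.1 RPKM against 9.68 to 11.1. Of 5 platelet genes, 3 were called higher in Deiters' cells, with sums of 31.5 to 35.6 RPKM there and 9.96 to 13.3 in pillar cells. Of 10 monocyte and macrophage genes, 3 were called higher in pillar and 1 higher in Deiters' cells, of which Adgre1 lost its call to pillar cells when any 1 library other than pillar library 1 was left out (limma, adjusted p = 0.0111 to 0.0197), and the sums overlapped, at 16.6 to 19.3 and 15.3 to 18.6 RPKM. Of 8 general leukocyte genes, 4 were called higher in pillar and 1 in Deiters' cells, and 6 had an unadjusted p under 0.05 toward pillar cells, with sums of 50.1 to 52.1 and 26.1 to 27.2 RPKM. All 7 bone genes had higher levels in pillar cells, each at an unadjusted p under 0.05, and 2 of them reached the 2-fold call, with sums of 490 to 493 and 212 to 219 RPKM. Mast cell and basophil genes were almost all at 0, with 6 of 9 listed at 0 in every library and Hdc, histidine decarboxylase, the only one tested. Proliferation genes were called in neither direction by limma (0 of 8), with 4 at an unadjusted p under 0.05 toward pillar cells and 1 toward Deiters' cells. Red cell genes were called once in each direction (of 8 tested). The call to pillar cells, Alas2, rested on a 2.02-fold difference and was lost without pillar library 2 or Deiters' library 2 (log2 differences 0.96 and 0.93). A single call in each direction was also made among T and NK cell genes (of 2). Of 4 blood progenitor genes, 1 was called, higher in Deiters' cells, and 2 without Deiters' library 2. The part of any of these cells in the levels of the 8 genes was not tested.

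The labels of the cell types were read against markers. Of 7 pillar cell markers tested, 4 were called higher in pillar cells, among them S100b and S100a6, and 2 higher in Deiters' cells, Cryab and Npy. The shares of all genes tested were 14.7% and 14.0%. Ngfr, also on the list, was too low to be tested. It was at 0.015 ± 0.0153 RPKM in pillar and 0.081 ± 0.0592 in Deiters' cells, with overlapping libraries. Npy was listed at 0 in pillar cells, and its call was lost when any 1 library other than Deiters' library 3 was left out (limma, adjusted p = 0.0222 to 0.0268). Of 10 general supporting cell markers, 3 were called, all higher in pillar cells. At an unadjusted p under 0.05 (limma), 7 were higher in pillar cells and 3 higher in Deiters' cells. Those 3, Fbxo2, Gjb6 and Gjb2, had the highest levels of the list and did not reach 2-fold. Gjb6 was at 712 ± 13.3 RPKM in pillar and 1386 ± 21.3 in Deiters' cells. The genes with the profile nearest to the mean of the primary genes, by Euclidean distance over the 6 libraries of centred log2(RPKM + 0.1), were Gm13532, Gstm2, Lum, Hs3st6 and Haus4, at distances of 0.0709 to 0.0881. Those nearest to the secondary genes were Slc1a5, Loxhd1, Akap12, Scg5 and Gpx2, at 0.143 to 0.182. The distance of a granule gene from the mean of its own class was larger, from 0.443 for Prtn3 to 2.49 for Ctsg in the primary class and from 0.565 for Ltf to 1.61 for Ngp in the secondary class. Gpx2, a glutathione peroxidase, was at 3373 ± 46.4 RPKM in pillar and 597 ± 4.25 in Deiters' cells, and Lum, lumican, at 270 ± 2.09 and 851 ± 20.3.

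Genes lying within 100 kb of the 8 genes were counted as a check of their surroundings. Of 21 neighbours of the primary genes that were tested, 1 (4.76%) was called higher in pillar cells and 3 (14.3%) higher in Deiters' cells. Of 19 neighbours of the secondary genes, 7 (36.8%) were called higher in pillar cells and 1 (5.26%) higher in Deiters' cells. The shares of all genes were 14.7% and 14.0%. Lpo, lactoperoxidase, lies 2014 bases from Mpo and was at 0.925 ± 0.287 RPKM in pillar and 0.697 ± 0.0901 in Deiters' cells, a difference that was not called. Cfd, complement factor D, lies 2637 bases from Elane and was listed at 0 in every library. Klhl18, 2913 bases from Ngp, was at 0.743 RPKM in pillar and 0.972 in Deiters' cells and was not called either. Of those called, Ptpn23, 11533 bases from Ngp, was at 2.41 ± 0.224 RPKM in pillar and 0.764 ± 0.0425 in Deiters' cells. Slc25a25, 26234 bases from Lcn2, was at 15.8 ± 0.164 and 5.8 ± 0.198 RPKM. Kif9, 53945 bases from Ngp, went the other way, at 0.374 ± 0.008 and 0.862 ± 0.144 RPKM. Gm11505, which lies within Mpo, was among the 3 primary neighbours called higher in Deiters' cells.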

How the data were processed

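RNA of about 1000 pillar cells or Deiters' cells per library was amplified with a low-input kit (SMARTer in the labels, SMART-Seq V4 in the methods) and sequenced. The ages given were 28 to 32 days in the labels, and the methods allow slightly older mice. CLC Genomics Workbench was used by the authors to map the reads (mm10, GRCm38), and RPKM values per lane were deposited. The release of the annotation and the strand setting are not stated. A total of 0 sample columns were left unmapped.

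The 2 lanes of each library were averaged (n = 3 per cell type). The 17188 genes averaging over 0.1 RPKM in at least 1 cell type were tested on log2(RPKM + 0.1) with limma 3.58.1 in R 4.3.3 (lmFit, eBayes with trend) and Benjamini-Hochberg adjustment over all of them, and were called where the adjusted p did not exceed 0.01 and the difference reached 2-fold. The added 0.1 understates the change of low genes. With 3 libraries a side, the smallest two-sided p of an exact permutation test is 0.1. The 8 genes stayed in the fit, and no test result is given for them. Folds of named genes are ratios of mean RPKM. Reads were worked out from the steps of the RPKM values with GENCODE M21 exon lengths and were whole to within 0.01 in 14388 of 20010 features (71.9%). They served only for depth, since the deposited RPKM values are not counts, and counting error is the only error they give. Coordinates are those of GENCODE M21 and RefSeq on GRCm38. For Elane and Ctsg the lengths that gave whole reads, 920 and 1002 bases, differ from the annotated 984 and 1033.

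The 8 genes and the 23 other gene lists were chosen with earlier results of these data known. Named genes are the 8, the 5 genes of each list with the highest mean RPKM, and the 5 genes with the nearest profile to each class, and genes outside this rule, including neighbours and genes given for being at 0, were picked after their values were seen. The fit was tested on simulated data. Alternatives covered the added constant, the filter, single lanes, scaling, the library number as a block and leaving out each library.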

Additional observations from a re-analysis of the deposited data

How the results depend on the processing

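The log2 ratios of the 8 genes were recomputed with single lanes, median ratio scaling, each library left out and the difference of mean log2(RPKM + 0.1), and 0 of 80 values reversed. All 80 stayed within 1 SD of the main one, an SD that combines the library spreads of both cell types. Leaving out 1 of 3 libraries can hardly move a ratio that far, so this bound says little. The log2 ratio of Ctsg, 0.36, had no stable size, at 0.0086 with lane 1 only, 0.71 with lane 2 only and 0.22 to 0.52 with a library left out. With a library left out, the median log2 ratio was -2.30 to -2.20 for the primary genes and 2.43 to 2.53 for the secondary genes. Adding 1 RPKM before the log gave 1001 genes higher in pillar cells, 778 higher in Deiters' cells and 3 other neutrophil genes higher in Deiters' cells. Testing only genes above 1 RPKM gave 1572, 1224 and 4. The other alternatives kept these counts within 1.5 times. Within the single lists, 53 of 644 counts moved by more. Among the genes called in the neutrophil lists, leaving out 1 library lost Ncf4 (without pillar library 2), Fpr2 (without any 1 pillar library, or Deiters' library 1 or 2) and Clec4e (without Deiters' library 1 or 2), with limma adjusted p of Fpr2 and Clec4e between 0.0104 and 0.0130. Whether same-numbered libraries share mice cannot be told from the values. Their deviations from the mean of their cell type correlated at -0.21, 0.28 and 0.29. Pillar library 1 correlated better with Deiters' library 3 (0.29), and pillar library 2 with Deiters' library 1 (0.33). Deviations from a mean of 3 libraries sum to 0, which alone mixes the signs of such correlations. With a replicate block, 2450 genes were called higher in pillar cells and 2253 higher in Deiters' cells, beside 2534 and 2404, and 17 and 10 other neutrophil genes, as without it. Depth limits Lcn2 and Ctsg most, with 26 to 143 and 51 to 80 reads per library.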
